A study of Mus musculus with 26 samples.

Results

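The mitochondrial ribosomal protein genes are the nuclear genes for the protein part of the ribosome inside mitochondria. They were taken here as every row of the count matrix whose symbol is Mrpl or Mrps followed by a number and at most 1 letter. That rule found 78 genes among the 56941 listed, 49 with a large subunit symbol (Mrpl) and 29 with a small subunit symbol (Mrps). All 78 were abundant enough to be tested, among 15357 genes tested, and the lowest count of any of them in any mouse was 244. Another 6 rows of related pseudogenes were not members, and the most abundant, Mrpl23-ps1, had 51 to 94 counts per library.

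RNA was measured by sequencing poly-A selected, strand-specific libraries of left ventricle from 26 mice. All mice carried loxP-flanked alleles of Ppp2r2a, which encodes B55α, a regulatory subunit of protein phosphatase 2A. The conditional knockout mice (cKO, aMHC-CreTg/0-Ppp2r2aL/L) also carried a Cre transgene driven by the heart muscle promoter aMHC, and the controls (Ctrl, aMHC-Cre0/0-Ppp2r2aL/L) lacked Cre. The series title names sex-specific regulation of the cardiac transcriptome as the question. The males comprised 6 Ctrl and 7 cKO mice and the females 6 Ctrl and 7 cKO, aged 12 to 16 weeks, all after 2 weeks of saline from an implanted osmotic pump. The labels give the strain as C57BL/6N and the design text a mixed background of that strain and FVB, the source of the Cre line. No group had Cre without the floxed alleles, so the effect of Cre cannot be told apart from that of the deletion. The floxed gene was lower in every cKO mouse (9.96 to 16.2 CPM, counts per 1e6 after scaling of the libraries) than in every Ctrl mouse (24.1 to 47.7 CPM), and 2 male controls, numbered 3 and 6, had less of it (24.9 and 24.1 CPM) than the remaining 4 (41.9 to 47.7 CPM). Libraries held 14.4 to 30.9 counts each, in units of 1e6.

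The mitochondrial ribosome translates only the few messenger RNAs of the mitochondrial genome, all of them for membrane subunits of the oxidative phosphorylation complexes. Its ribosomal RNAs are encoded in the mitochondrion, whereas its proteins are encoded in the nucleus, made in the cytosol and imported. The small subunit decodes the messenger RNA, and the large subunit joins the amino acids and lets the new protein out at the inner membrane. Heart muscle is packed with mitochondria and depends on this supply. A symbol does not always give a protein's place: the products of Mrps30 and Mrps18a sit in the large subunit, that of Mrps36 belongs to the oxoglutarate dehydrogenase complex, and Mrpl58 encodes a peptidyl-tRNA hydrolase built into the large subunit.

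The genes are spread over 17 autosomes, with 11 on chromosome 11 and 8 on chromosome 17, so they share no single locus. What their promoters share was read from RefSeq windows of build GRCm38.p6, from 250 bases before to 50 after an annotated start, which were matched by symbol for 69 of the 78 genes (75 windows). Mrpl4, Mrpl13, Mrpl15, Mrpl19, Mrpl38, Mrpl54, Mrps28, Mrps34 and Mrps35 had none. The ETS-family core CCGGAAG lay on either strand in 34.7% of these windows, against 16.0% of 14015 windows of the genes tested and 8.86% of all 32851 windows. For the YY1 motif AAGATGGC the shares were 16.0%, 4.1% and 2.75%. The NRF1 motif GCGCANGCG was found in 21.3%, 12.2% and 6.25%. At least 1 of the 3 motifs was present in 58.7% of the members' windows and 28.3% of those of the genes tested, at a similar median GC content (58.7% and 60.3%). The 48 large subunit windows held the ETS core in 31.2%, YY1 in 12.5% and NRF1 in 25%, and the 27 small subunit windows in 40.7%, 22.2% and 14.8%. These shares rest on few windows: YY1 lay in 6 of each subunit and NRF1 in 12 large and 4 small subunit windows. These are matches of letters, overlaps between motifs were allowed, and no test was made of the shares.

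Shown here are 5 promoters with their matches, each as the 120 bases just before an annotated start, 5′ to 3′ on the strand of the gene, with the motif letters in capitals. Mrpl58, Mrpl45 and Mrpl48 are among the genes that passed the genotype test over both sexes, Mrpl34 is one whose male genotypes did not overlap, and Mrps22 represents the small subunit. None of the 5 stretches overlaps an exon of GENCODE M21. They lie at chr11:115403632-115403751 (plus strand), chr11:97315596-97315715 (plus), chr7:100583131-100583250 (minus), chr8:71464806-71464925 (plus) and chr9:98601680-98601799 (minus), in this order.
Mrpl58: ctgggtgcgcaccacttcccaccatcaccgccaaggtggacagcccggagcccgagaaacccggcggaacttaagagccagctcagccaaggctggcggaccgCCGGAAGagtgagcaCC
Mrpl45: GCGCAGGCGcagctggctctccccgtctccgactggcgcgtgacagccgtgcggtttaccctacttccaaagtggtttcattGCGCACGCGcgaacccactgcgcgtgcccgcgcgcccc
Mrpl48: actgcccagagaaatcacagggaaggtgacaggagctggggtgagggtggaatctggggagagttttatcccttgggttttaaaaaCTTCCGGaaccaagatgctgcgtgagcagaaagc
Mrpl34: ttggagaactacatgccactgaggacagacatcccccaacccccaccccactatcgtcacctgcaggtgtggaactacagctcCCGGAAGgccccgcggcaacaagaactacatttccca
Mrps22: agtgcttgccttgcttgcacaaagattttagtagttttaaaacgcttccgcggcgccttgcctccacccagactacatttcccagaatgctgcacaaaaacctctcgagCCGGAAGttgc
Mrpl58, Mrpl34 and Mrps22 carry the ETS core at -17, -37 and -11 from the start, and a further ETS match in Mrpl58 begins at -2 and runs past the start. Mrpl45 carries the NRF1 motif at -120 and -38. Mrpl48 has 4 RefSeq windows, and only the one shown holds a motif, an ETS core on the opposite strand at -34. The one shown (46.0% GC) lies furthest downstream of the 4. The windows at chr7:100607573-100607872 and chr7:100608252-100608551 (72.7% and 68.3% GC) lie upstream of it and hold no motif. Which start is used in the ventricle was not tested.

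Before any comparison the levels themselves were described. Per kilobase of the longest protein-coding transcript in GENCODE M21, the mean Ctrl level over 12 mice had a median of 40.8 CPM per kb over large subunit genes and 26.8 over small subunit genes. The highest was Mrpl42 at 422 ± 25.2 CPM per kb (SD), followed by Mrps21, the small subunit counterpart of a bacterial protein, at 156 ± 11.6 and Mrpl12, the stalk protein of the large subunit, at 154 ± 10.9. Mrps21 and Mrpl12 did not differ beyond their spread. At the low end were Mrpl17 at 5.36 ± 0.24, Mrpl19 at 6.51 ± 0.43 and Mrps25 at 7.76 ± 1.23 CPM per kb. These places depend on the transcript chosen: the coding transcript of Mrpl42 has 666 bases and its longest transcript 3277, which would give 85.8 CPM per kb, and the low genes have models of 5000 to 7300 bases.

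The 78 genes were lower in cKO than in Ctrl males almost without exception, by a small and similar amount in both subunits. Of the 78, 76 had a negative log2 fold change in males, all 49 large subunit genes and 27 of 29 small subunit genes, where 49.7% of all genes tested were lower. The median log2 fold change was -0.14 for large and -0.14 for small subunit genes, and 0.00 over all genes tested. Most members did not pass the edgeR test singly. In edgeR's quasi-likelihood test with Benjamini-Hochberg adjustment over all genes tested, 4 fell at an adjusted p under 0.05, against a background of 0.26% of genes called lower. The DESeq2 Wald test called 20 members and voom 11, among 386 and 188 genes called in all, where edgeR called 68. At an unadjusted p under 0.05 in edgeR, 48 members were lower and 0 higher, against 7.09% and 6.11% of all genes tested. The members were measured in the same mice and varied together (mean pairwise correlation within groups 0.215). Counts of members, here and in the comparisons below, are therefore not counts of independent results. Because the tissue is bulk ventricle, fewer cells of a type and less RNA per cell cannot be told apart.

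The per-mouse average shows the size of this shift against the spread between mice. Relative to the mean of all 26 mice, the mean log2 CPM of the 49 large subunit genes was 0.07 ± 0.04 in Ctrl males (SD, n = 6) and -0.06 ± 0.05 in cKO males (SD, n = 7). Small subunit genes stood at 0.07 ± 0.05 and -0.05 ± 0.05 in the same mice. Both subunits moved together from mouse to mouse: the large minus small difference stayed between -0.06 and 0.03 in every one of the 26 mice. Over both subunits, Ctrl males ran from 0.01 to 0.12 and cKO males from -0.13 to 0.03, so the groups overlapped. The overlap came from Ctrl male 6, the lowest control, and cKO male 7, the highest knockout.

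**Figure D1:**
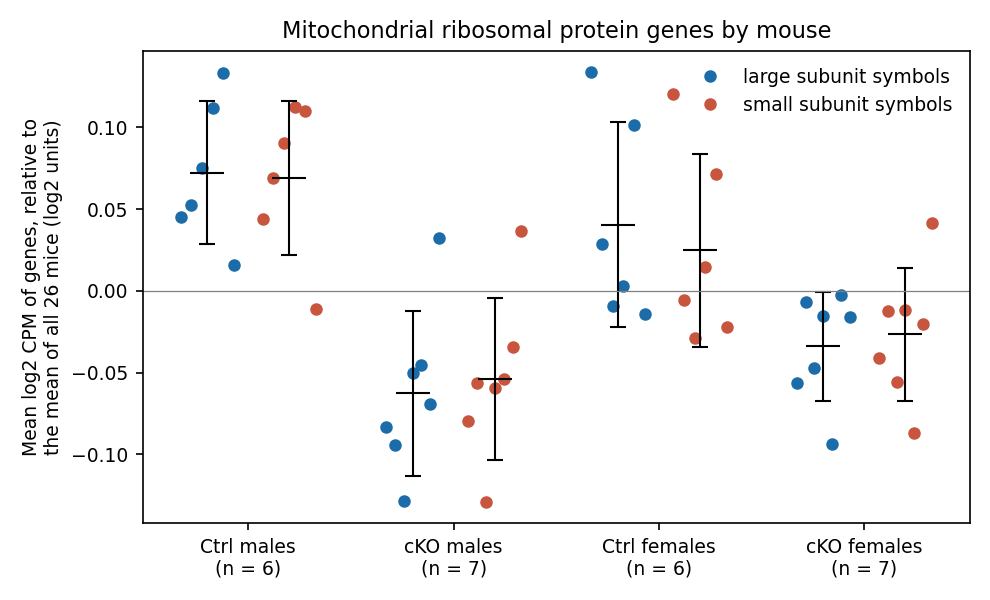
Mean log2 CPM of the 49 large and 29 small subunit genes (by symbol) in each mouse, relative to the mean of all 26 mice (y axis, log2 units), by group (x axis); points are mice, bars the mean ± SD. Ctrl males average 0.07 for both subunits and cKO males -0.06 and -0.05, and the genotypes lie closer together in females.

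Mrpl48, a protein of the central protuberance of the large subunit, had the smallest p of all members. Its level was 38.2 CPM at the lowest, 40.0 at the median and 43.5 at the highest in Ctrl males, and 30.2, 33.3 and 35.9 in cKO males. The male genotypes did not overlap. The log2 fold change was -0.28 (edgeR adjusted p = 0.0051, SE 0.05), and it stayed past the threshold with each of the 26 mice left out in turn (adjusted p 0.0033 to 0.0298). Reads of its pseudogene Mrpl48-ps were few (7 to 29 per library). Of its exon length, 8.69% overlaps Rab6a on the opposite strand.

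Mrpl51, a large subunit protein found in mitochondrial but not bacterial ribosomes, ran from 134.2 through a median of 144.5 to 156.7 CPM in Ctrl males and from 118.6 through 126.4 to 138.8 CPM in cKO males. All 7 cKO males lay below the control mean and 6 lay below the lowest control. The log2 fold change was -0.19 (edgeR adjusted p = 0.0462, SE 0.04). Among small subunit genes, Mrps16, a counterpart of a bacterial ribosomal protein, was at 52.8, 54.6 and 61.1 CPM (lowest, median, highest) in Ctrl males and 45.7, 47.1 and 51.2 in cKO males, without overlap. Its log2 fold change was -0.22 (edgeR adjusted p = 0.0486, SE 0.05). Mrps34, a mitochondria-specific small subunit protein, ran from 63.5 through 71.6 to 74.9 CPM in Ctrl and from 55.3 through 61.0 to 65.1 CPM in cKO males. Only 1 cKO male lay above the lowest control, and the log2 fold change was -0.23 (edgeR adjusted p = 0.0486, SE 0.05). Exons of Mrps34 overlap Nme3 on the same strand and Mapk8ip3 on the other, so its counts are uncertain.

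Just past the threshold on the other side stood Mrpl1, the protein of the mobile L1 stalk, with a log2 fold change of -0.21 (edgeR adjusted p = 0.0548, SE 0.05), and Mrpl43 with -0.19 (edgeR adjusted p = 0.059, SE 0.05). The male genotypes did not overlap for 9 members, all lower in cKO: Mrpl34, Mrpl36, Mrpl43 and Mrpl48 of the large subunit and Mrps16, Mrps17, Mrps24, Mrps28 and Mrps31 of the small. Over all genes tested, 0.873% separated in that direction. All 7 cKO males lay below the control mean for 36 of 78 members and for 8.51% of all genes tested. The 2 members that were not lower, Mrps12 of the decoding centre at 0.02 (SE 0.12) and Mrps27, an RNA-binding small subunit protein, at 0.01 (SE 0.06), differed by less than their standard errors.

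**Figure D2:**
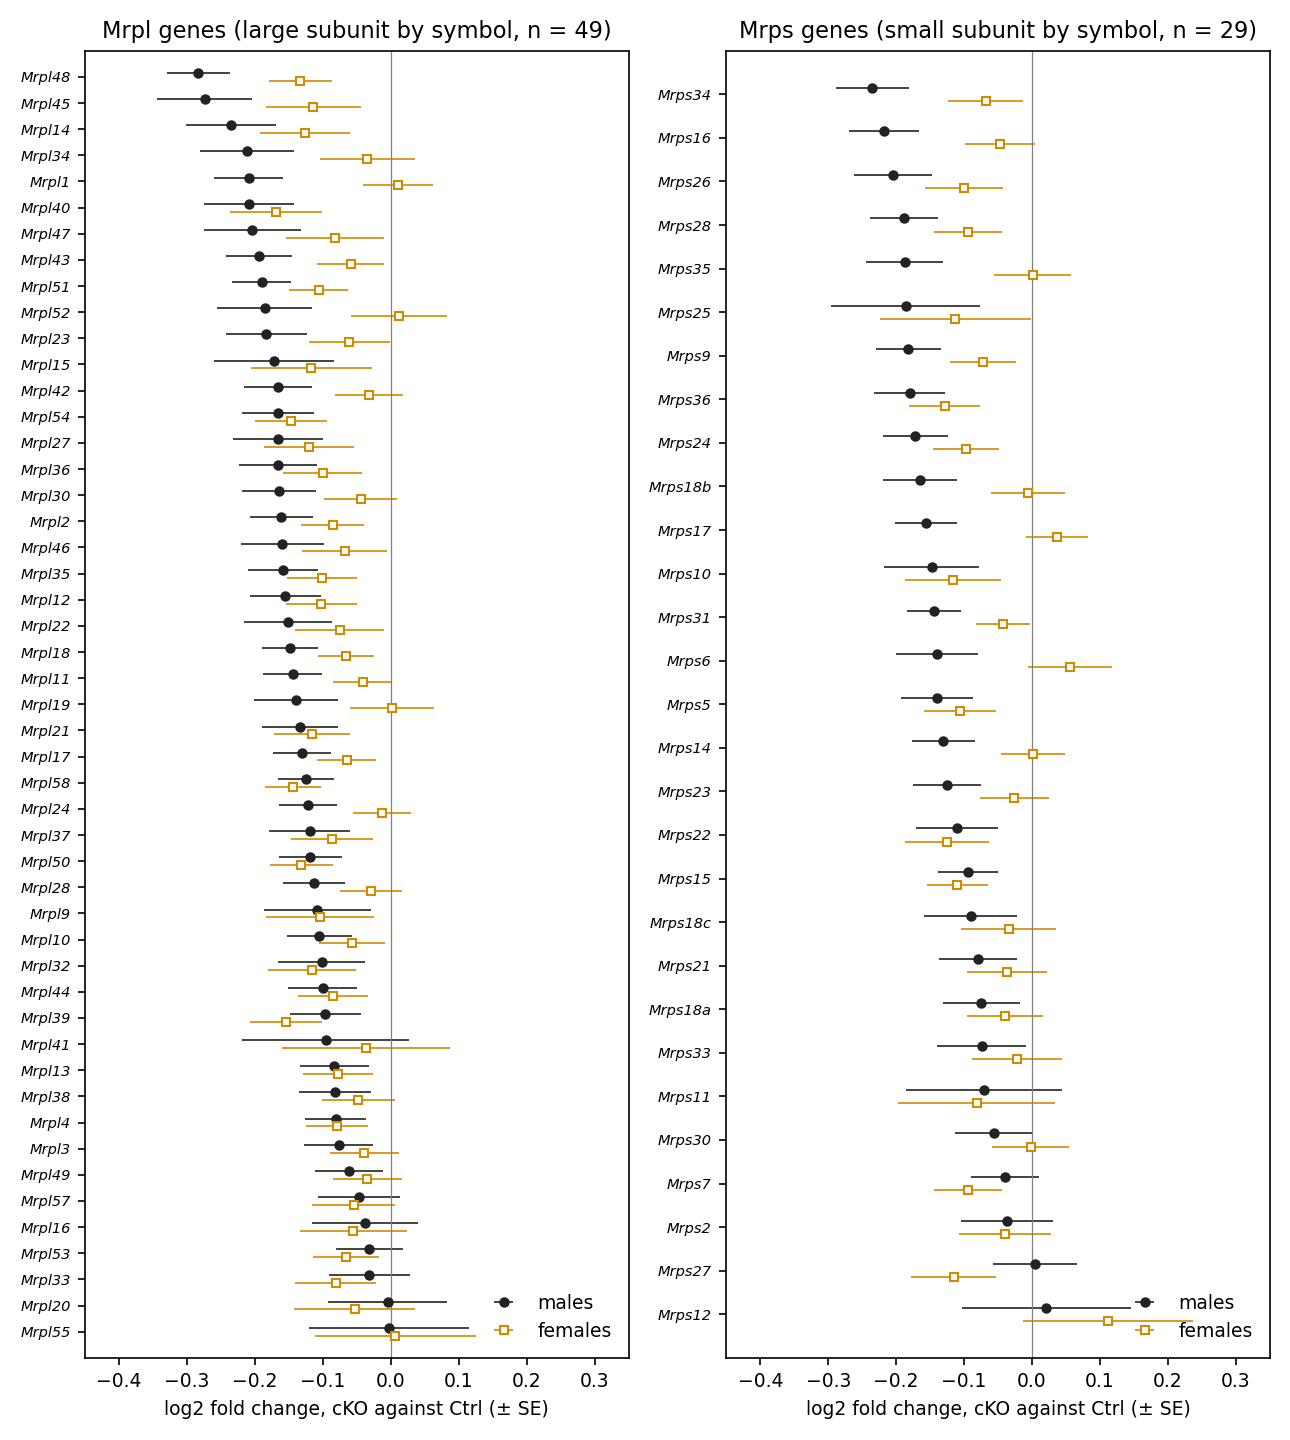
Log2 fold change of cKO against Ctrl (x axis, ± SE) for each of the 49 large (left) and 29 small (right) subunit genes, ordered by the value in males; filled circles are males and open squares females. In males 76 of 78 points lie below 0, in females 69.

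Apart from Mrpl48, the calls in males were close to the threshold, and their number moved with 15 of the 26 mice. The count was 1 when any one of Ctrl males 1 to 5, cKO males 1, 2, 3, 5 and 6, Ctrl female 4 and cKO females 3 and 6 was left out, 2 without cKO male 4 and 7 without Ctrl female 6. Over all genes, the number called in males moved too, from 68 to between 4 and 122. Without Ctrl males 3 and 6, the controls with less Ppp2r2a, 1 member was called, among 7 genes in all, and 75 of 78 members were lower. With each mouse left out in turn, 75 to 77 members were lower.

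In females the members leaned the same way, but none passed the test singly. Of the 78, 69 were lower in cKO females, 45 of 49 large and 24 of 29 small subunit genes, with medians of -0.08 and -0.05 against 0.00 over all genes tested, of which 48.9% were lower. Without Ctrl female 2 the small subunit median was -0.08. With each mouse left out in turn it ranged from -0.08 to -0.03, and the large subunit median from -0.09 to -0.05. No member was called by edgeR, where 0.0326% of genes were called in either direction, and DESeq2 and voom also called 0. At an unadjusted p under 0.05 in edgeR, 10 members were lower and 0 higher, against 2.42% and 2.73% of all genes tested. The per-mouse average over both subunits was 0.03 ± 0.06 in Ctrl females (SD, n = 6, -0.02 to 0.13) and -0.03 ± 0.03 in cKO females (SD, n = 7, -0.09 to 0.01), with overlap.

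Mrpl58 had the smallest p in females. Its level was 42.5, 45.8 and 47.5 CPM (lowest, median, highest) in Ctrl and 39.2, 40.5 and 45.4 in cKO females, and 6 of 7 cKO females lay below the lowest control. The log2 fold change was -0.14 (edgeR adjusted p = 0.526, SE 0.04). Next came Mrpl39 at -0.15 (SE 0.05), Mrpl48 at -0.13 (SE 0.05), Mrpl50 at -0.13 (SE 0.05) and Mrpl54 at -0.15 (SE 0.05), all large subunit genes with edgeR adjusted p of at least 0.825. The female genotypes did not overlap for 1 member, Mrpl40, where 0.0521% of all genes separated in this direction. Mrpl40 ran from 25.6 through 26.6 to 30.0 CPM in Ctrl and from 20.9 through 24.7 to 25.4 in cKO females, with a log2 fold change of -0.17 (edgeR adjusted p = 0.932, SE 0.07). The 9 members above 0 in females were Mrpl1, Mrpl19, Mrpl52, Mrpl55, Mrps6, Mrps12, Mrps14, Mrps17 and Mrps35.

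**Figure D3:**
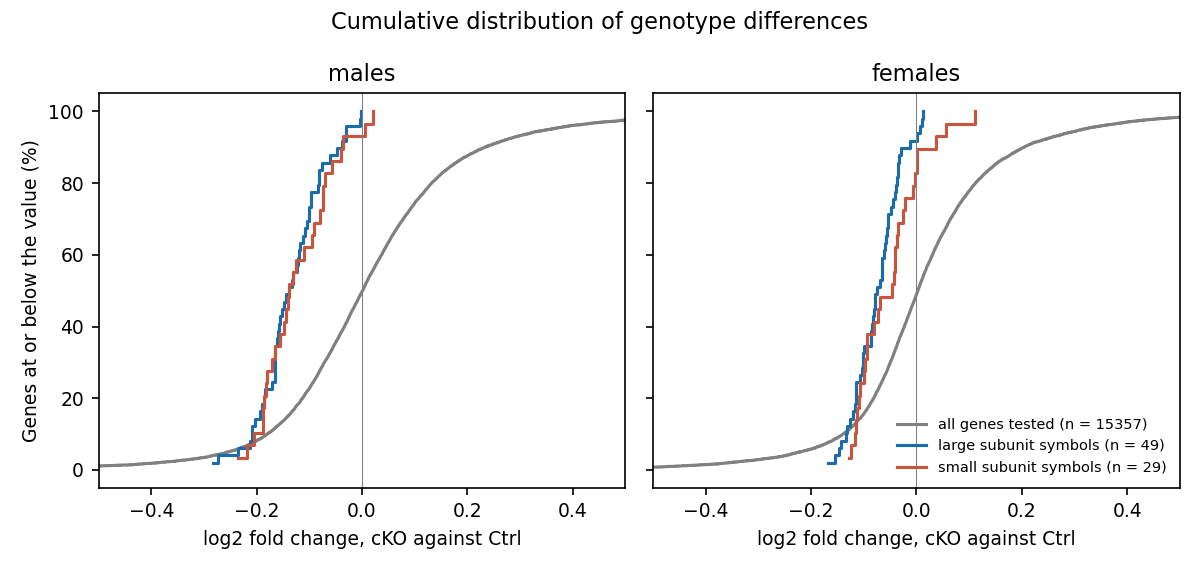
Cumulative percent of genes (y axis) at or below each log2 fold change of cKO against Ctrl (x axis, shown from -0.5 to 0.5) for large subunit genes, small subunit genes and all genes tested, in males (left) and females (right). At the medians both subunit curves lie left of all genes, at -0.14 in males and at -0.08 (large) and -0.05 (small) in females.

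Both sexes together gave more calls, since the mean genotype effect uses all 26 mice. Of the 78, 76 were lower, with medians of -0.11 for large and -0.09 for small subunit genes. The test called 12, all lower, against 0.866% of all genes called lower. DESeq2 called 26 members and edgeR without a filter on low counts 3, among 525 and 113 genes called in all, where the main count was 205. The 12 of the main edgeR fit were Mrpl48, Mrpl51, Mrpl58, Mrpl54, Mrpl40, Mrpl45, Mrpl14 and Mrpl50 in the large subunit, and Mrps36, Mrps28, Mrps24 and Mrps34 among small subunit symbols. Mrpl48 fell by 0.21 on the log2 scale (edgeR adjusted p = 0.0019, SE 0.03), Mrpl51 by 0.15 (edgeR adjusted p = 0.0156, SE 0.03) and Mrpl58 by 0.13 (edgeR adjusted p = 0.0183, SE 0.03). These 3 were called with each mouse left out in turn. The other 9 had adjusted p values of 0.0308 to 0.0479 and each lost its call without at least 7 single mice. Mrpl45, a large subunit protein near the exit tunnel, had the next largest change of the 12 at -0.19 (edgeR adjusted p = 0.0457, SE 0.05). The count was 3 without Ctrl female 1 or cKO female 5, 4 without Ctrl male 1, Ctrl male 5, cKO male 6 or Ctrl female 4, 5 without Ctrl male 4, cKO male 1, cKO male 3, Ctrl female 5 or cKO female 1, 6 without cKO male 2 and 7 without Ctrl male 3, cKO female 3 or cKO female 7. Over all genes, the number called in the mean moved too, from 205 to between 96 and 349.

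The question of a sex difference was tested directly, as the female minus the male genotype effect. No member was called by edgeR, and over all genes the share called was 0.0%. DESeq2 and voom called 0 members as well. At an unadjusted p under 0.05, 8 members had a higher (less negative) effect in females and 0 a lower one, against 2.04% and 1.91% of all genes tested, and 63 of 78 had the more negative value in males. The median difference was 0.06 for large and 0.07 for small subunit genes. Both stayed above 0, but the large subunit median was 0.03 without cKO male 3 and 0.04 with the length and GC offset, and the small subunit median was 0.04 without Ctrl male 4, 0.05 without Ctrl female 3 or cKO male 3 and 0.05 with voom. Mrpl1 had the smallest p, at 33.1, 35.4 and 40.0 CPM (lowest, median, highest) in Ctrl and 28.5, 31.6 and 34.3 in cKO males, but 31.1, 32.3 and 33.5 in Ctrl and 30.6, 32.5 and 35.5 in cKO females. The difference between its effects was 0.22 (edgeR adjusted p = 0.999, SE 0.07).

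Mrps17, a counterpart of a bacterial small subunit protein, gave a like picture. It was at 48.4, 50.8 and 53.7 CPM in Ctrl and 42.9, 46.2 and 47.1 in cKO males, without overlap, and at 44.5, 47.9 and 50.2 in Ctrl and 44.98, 49.3 and 54.3 in cKO females, with overlap. Its difference between the sexes was 0.19 (edgeR adjusted p = 0.999, SE 0.06). For Mrps16, Mrps35 and Mrpl48 it was 0.17 (SE 0.07), 0.19 (SE 0.08) and 0.15 (SE 0.07), with the same adjusted p. For none of these genes was a difference between the sexes shown.

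**Figure D4:**
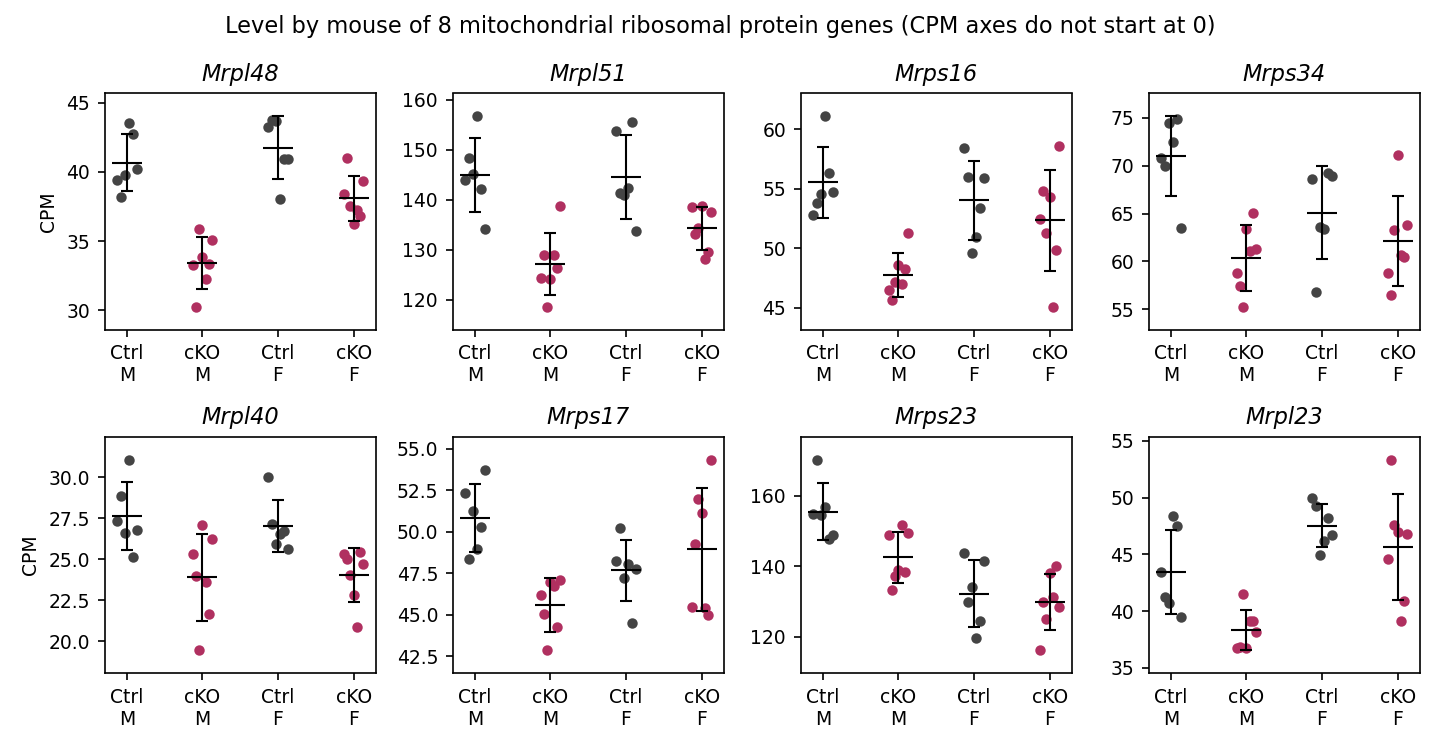
CPM in each mouse (y axes, which do not start at 0) of 8 genes in Ctrl and cKO males (M) and females (F); points are mice, bars the mean ± SD (n = 6 Ctrl and 7 cKO per sex). Mrpl48, Mrps16 and Mrps17 separate the genotypes in males only, and Mrpl40 in females only.

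Between the sexes within a genotype, few members were called, and in cKO mice their share was close to that of all genes. Of the 78, 1 was called in Ctrl mice, where 0.638% of genes were called: Mrps23, a small subunit protein, at 147.7, 154.6 and 170.2 CPM (lowest, median, highest) in Ctrl males and 119.7, 132.0 and 143.9 in Ctrl females, without overlap. The log2 difference of females against males was -0.23 (edgeR adjusted p = 0.0273, SE 0.05). The call was lost without Ctrl male 2, 3 or 4 or without Ctrl female 2, 4 or 5, and the count was 2 without cKO male 7. In cKO mice 2 were called, both higher in females, where 2.7% of genes were called. Mrpl23, at the mouth of the exit tunnel, was at 36.7, 38.2 and 41.5 CPM in cKO males and 39.1, 46.8 and 53.3 in cKO females, with a log2 difference of 0.25 (edgeR adjusted p = 0.019, SE 0.06). Mrpl48 differed by 0.19 (edgeR adjusted p = 0.023, SE 0.04), a call that was lost without cKO female 2. These values use the same mice as the genotype comparisons. The median member was 0.03 lower in females among Ctrl mice (log2 median -0.03) and 0.04 higher among cKO mice. With the length and GC offset the cKO value was 0.01, and 35 rather than 27 members were lower in females.

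Members whose symbol and place differ were described on their own. Mrps30 changed by -0.06 (SE 0.06) in males and -0.00 (SE 0.06) in females, and Mrps18a by -0.07 (SE 0.06) and -0.04 (SE 0.06). Mrps18b and Mrps18c, paralogs of Mrps18a with products in the small subunit, were at -0.16 (SE 0.05) and -0.09 (SE 0.07) in males and -0.01 (SE 0.05) and -0.03 (SE 0.07) in females. None of these passed the test. Mrps36 was at -0.18 (SE 0.05) in males and -0.13 (SE 0.05) in females and passed in the mean of the sexes (-0.15, edgeR adjusted p = 0.0312, SE 0.04). With Mrps30 and Mrps18a counted in the large subunit and Mrps36 left out, the medians were -0.13 for 51 large and -0.14 for 26 small subunit genes in males and -0.07 and -0.06 in females.

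How far the members vary together was described by the mean pairwise correlation of their log2 CPM within groups, over the same 26 mice. It was 0.22 among large subunit genes, 0.19 among small subunit genes and 0.21 between the subunits, and 0.000305 among all genes tested. Library scaling and depth are shared by all points, so the values are descriptive. Scaling of the libraries also holds the value over all genes near 0, and those genes include ones with lower counts. The value over all genes is therefore no matched reference for the members. Mrps9 followed the mean of the other members most closely (r = 0.82), then Mrpl13 (0.81) and Mrpl42 (0.79). Mrpl55 did so least (r = -0.11), then Mrpl9 (0.06), Mrpl16 (0.09) and Mrps17 (0.09).

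Genes for the other parts of mitochondrial translation were mostly lower in cKO males too. Of 5 further proteins of the mitochondrial ribosome (Dap3, Ptcd3, Chchd1, Aurkaip1 and Gadd45gip1), 5 were lower in both sexes, with medians of -0.18 and -0.07. Aurkaip1, a small subunit protein, passed in males (-0.18, edgeR adjusted p = 0.0486, SE 0.04) and in the mean of the sexes (-0.16, edgeR adjusted p = 0.0097, SE 0.03), and Gadd45gip1, a large subunit protein, in the mean (-0.22, edgeR adjusted p = 0.0468, SE 0.06). Of 25 assembly factors, 24 were lower in males (median -0.13) and 19 in females (median -0.03), with 0 called in edgeR. At an unadjusted p under 0.05, 12 of the 25 were lower in males and 0 in females, against 7.09% and 2.42% of all genes tested. The smallest p values in males belonged to Rbfa, which acts in small subunit maturation (-0.19, SE 0.05), and Malsu1, which binds the assembling large subunit (-0.22, SE 0.06). Of 16 translation factors, 14 were lower in each sex (medians -0.09 and -0.05), with 0 called. At an unadjusted p under 0.05, 5 of them were lower in males and 2 in females, beside the same shares of all genes. Mrrf, the ribosome recycling factor, was at -0.16 (SE 0.05) and Mtif3, an initiation factor, at -0.17 (SE 0.06) in males. Of 17 mitochondrial aminoacyl-tRNA synthetases, which load amino acids onto transfer RNAs, 16 were lower in males and 15 in females (medians -0.04 and -0.07), and Fars2, for phenylalanine, passed in males (-0.20, edgeR adjusted p = 0.0316, SE 0.04) and in the mean (-0.14, edgeR adjusted p = 0.0162, SE 0.03). Iars2, for isoleucine, was at -0.13 (SE 0.05) in males.

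A pair of larger families gives the setting. Nuclear oxidative phosphorylation genes were lower for 80 of 81 tested in males (median -0.16) and 79 of 81 in females (median -0.07). Of these, edgeR called 7 lower in males, 0 in females and 21 in the mean of the sexes, beside 4, 0 and 12 members. Over all genes tested, 0.26% were called lower in males and 0.866% in the mean. At an unadjusted p under 0.05 in edgeR, 70 of the 81 were lower in males and 20 in females. Among the 78 members these counts were 48 and 10, and among all genes tested the shares were 7.09% and 2.42%. Cytosolic ribosomal protein genes were lower for 77 of 82 in males (median -0.13) and for 20 of 82 in females (median 0.03). EdgeR called 0 of them in males, in females and in the mean. At an unadjusted p under 0.05 in edgeR, 20 were lower in males and 0 in females. The female difference between the 2 kinds of ribosomal protein genes was not tested.

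The messenger RNAs that this ribosome translates took 14.6% to 18.8% of counts in Ctrl males, 16.1% to 18.5% in cKO males, 16.5% to 17.8% in Ctrl females and 13.3% to 17.9% in cKO females, so the groups overlapped.

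Several measured properties moved with these results. Fold changes rose with transcript length in males (Spearman rho 0.25 across 15092 genes, which are not independent replicates; 0.10 in females), and the members' median longest transcript of 1866.5 bases was shorter than the 3192 of all genes tested. With an offset for length and GC content per library, 74 members were lower in males (median -0.12) and 72 in females (median -0.08), beside medians of -0.02 and -0.01 over all genes. With that offset 2 members were called in males, among 28 genes in all, and 9 in the mean, among 167. Cardiomyocyte markers were lower for 6 of 8 in males (median -0.11) and 8 of 8 in females (median -0.08), Tnni3 passing in males (-0.24, edgeR adjusted p = 0.0316, SE 0.05). Their summed level was 66511 to 74648 CPM in Ctrl and 58753 to 69925 in cKO males, and 66947 to 80601 and 63662 to 75549 in females. Fibroblast markers were higher for 6 of 6 in both sexes (medians 0.09 and 0.11, sums of 1788 to 2416 and 2026 to 2379 CPM in Ctrl and cKO males and 1948 to 2345 and 1992 to 2775 in females). Endothelial markers were lower for 4 of 6 in males (median -0.12) and higher for 6 of 6 in females (median 0.06), macrophage markers higher for 5 of 6 in each sex (medians 0.03 and 0.08), mural markers higher for 3 and 4 of 6 (medians -0.08 and 0.05) and erythroid markers lower for 3 of 3 in each sex (medians -0.09 and -0.17). None of these 4 sets had a gene called in either sex by edgeR, and at an unadjusted p under 0.05 only 1 macrophage marker was past, in males. Lymphocyte and atrial markers summed to at most 1.61 and 2.31 CPM in any mouse, adipocyte markers to at most 5.44. The part of the cell markers in the members' shift was not tested.

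For some members the counting itself limits the values. Exons of 5 members overlap another gene on the same strand by over 5% of their length, among them Mrpl53, Mrps18c, Mrps24, Mrps34 and Mrps6. Another gene on the opposite strand overlaps 21 members by over 5%, including the called Mrpl48, Mrpl14 and Mrps34 as well as Mrps25, Mrpl19, Mrpl43, Mrps18b and the neighbours Mrpl46 and Mrps11, and 53 have neither at that size. A further 7 overlap an opposite-strand gene by at most 5%. Whether the counting used the strand is not given in the sources used here, so these levels are uncertain.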

How the data were processed

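The authors deposited one matrix of whole-number counts per gene for 26 left ventricle libraries, without normalization. FastQC 0.74, cutadapt 4.6, STAR 2.7.11a, HTSeq and the build GRCm39 are named in the submitters' processing notes; the annotation release and the strand setting of counting are not given in the sources used here. Per the labels each library is a mouse numbered within its group, so the same numbers recur between groups.

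Groups come from the labels. Rows without a gene name held 0.0106% of the counts of all libraries together. Tests used edgeR 4.0.16 in R 4.3.3: filterByExpr with a minimum count of 10, TMM scaling, one model with 4 group means over 26 mice, robust quasi-likelihood F tests, and Benjamini-Hochberg adjustment over all genes tested, called at 0.05. Each standard error is the fold change over the root of F. Log2 CPM used a prior count of 2. Alternatives used DESeq2 1.42.0, limma 3.58.1, other filters and thresholds, an offset of natural splines (4 degrees of freedom) of length and GC content from GENCODE M21 (available for 98.3% of genes tested), the replicate number as a block, and each mouse left out. The fit was tested on simulated data.

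The genes named are members called in any of 6 contrasts, the 5 of smallest p in the male, female, difference and mean contrasts, members whose symbol and place differ, the extremes of the level scale, and in related lists the called genes and the 2 of smallest p in males. Mrpl43, Mrps12, Mrps27, the members without overlap, those above 0 in females, the extremes of the correlations, the overlapping genes and the promoters shown were chosen once their values had been seen. The members and lists were chosen with earlier results of these data known. Within groups, the chi-square per degree of freedom of 72 pairs of libraries was 7.19 to 33.4, so none was a duplicate.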

Additional observations from a re-analysis of the deposited data

Results flagged for a closer look

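Single mice stood apart from their group in 4 of 132 checks of a group's highest and lowest mouse over the named genes and the averages, where chance gives about 1 in 20. Mrpl40 was at 30.02 CPM in Ctrl female 1 and at 25.59 to 27.16 CPM in the other Ctrl females. Mrpl58 was at 40.85 CPM in cKO male 4 and at 37.19 to 38.58 CPM in the other cKO males. Mrps18b was at 23.65 CPM in cKO female 2 and at 25.46 to 26.78 CPM in the other cKO females. Mrps35 was at 76.43 CPM in cKO male 7, the mouse with the highest average of all members among cKO males, and at 64.15 to 68.93 CPM in the others.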

How the results depend on the processing

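All medians of the members and subunits in the genotype comparisons and their difference kept their direction and moved by less than the SD between mice (0.048), which is about as large as some of them. With mice left out, the large and small subunit medians ranged from -0.16 to -0.13 and -0.15 to -0.11 in males, -0.09 to -0.05 and -0.08 to -0.03 in females, and 0.03 to 0.08 and 0.04 to 0.09 for the difference. Counts of calls moved more. The number of members called is given here out of all genes called, which moved as well. In males (main 4 of 68) it was 20 of 386 with the DESeq2 Wald test and 11 of 188 with voom. It was 1 of 31 with no filter and 8 of 164 at a mean of at least 5 CPM. With the length and GC offset it was 2 of 28, and with that offset and the replicate block 1 of 17. At an adjusted p under 0.01 it was 1 of 4, under 0.1 it was 17 of 304, and without Ctrl males 3 and 6 it was 1 of 7. In the mean of the sexes (main 12 of 205) it was 26 of 525 with DESeq2 and 3 of 113 with no filter. There it was 1 of 23 under 0.01 and 24 of 487 under 0.1. Between Ctrl females and males (main 1 of 98) it was 2 of 253 with DESeq2 and 2 of 225 under 0.1. It was 0 of 98 with the replicate block, 0 of 87 with block and offset and 0 of 61 with only the compared groups. It was 0 of 35 under 0.01 and 0 of 40 without Ctrl males 3 and 6. Between cKO females and males (main 2 of 414) it was 1 of 244 with no filter. There it was 1 of 208 with offset and block and 0 of 69 under 0.01. Leaving out each mouse gave 1 to 7 members in males, 3 to 18 in the mean, 0 to 2 in Ctrl and 1 to 3 in cKO mice. Over all genes these ranges were 4 to 122, 96 to 349, 54 to 125 and 163 to 548. Females and the difference between the sexes had 0 throughout. In females, at a mean of at least 5 CPM, Mrps30 was at 0.0056 and Mrps18b at 0.0017, and with mice left out Mrps30 ranged from -0.027 to 0.055, Mrps18b from -0.039 to 0.013 and Mrps18c from -0.064 to 0.0022. Same-numbered correlations between genotypes ran from -0.163 to 0.088 in males, with a mean of -0.0259 against 0.0043 for the 36 other pairs. In females they ran from -0.0969 to 0.404, with a mean of 0.118 against -0.0186 for the 36 other pairs. No test was made of these correlations, so whether mice were paired by number was not settled. Of the 6 same-numbered pairs, 1 in males and 2 in females correlated best with their own number. The replicate block gave 6 member calls of 75 in all in males and 14 of 170 in the mean. The mean and difference contrasts use all groups, so no fit of only the compared groups applies to them. The spread between mice limits single genes at this size of change.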
